A study of Homo sapiens with 2 samples.

Results

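The genes described here make and sense the prostaglandins, thromboxane and leukotrienes, the lipid mediators derived from arachidonic acid. They are 10 of the 19775 genes that the arrays read with at least 1 probe set of their own, namely PTGS1, PTGS2, TBXAS1, PTGES, PTGER1, ALOX5, ALOX5AP, ALOX12, LTA4H and LTC4S, and together they had 21 such probe sets. They were chosen by pathway and by the signals and ratios of these same arrays, because PTGES, PTGER1 and ALOX5 were already known to show high ratios, so every value below is a description and none is a test. The cells were MEG-01, a human megakaryoblastic line from a patient with chronic myeloid leukemia (CML) in blast crisis. The control population carried a lentivirus for Venus, a yellow fluorescent protein, and the other one a lentivirus for Venus and GAS2DN, a truncated GAS2 that acts as a dominant negative form. In both vectors the promoter of spleen focus forming virus drove the insert, and transduced cells were sorted by fluorescence before RNA was extracted. RNA of 3 extracts per condition was pooled in equal amounts and hybridised to 1 Affymetrix Human Genome U133 Plus 2.0 array, so the Venus and the GAS2DN condition had 1 array each and the spread between extracts was lost in the pool. The values were MAS5 signals, and ratios are GAS2DN over Venus.

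Arachidonic acid is released from membranes by phospholipase A2. The cyclooxygenases PTGS1 and PTGS2 turn it into prostaglandin H2, from which TBXAS1 makes thromboxane A2 and PTGES makes prostaglandin E2, a ligand of the receptor PTGER1. Lipoxygenases oxidise the same acid, and ALOX5, helped by the membrane protein ALOX5AP, makes leukotriene A4, which LTA4H hydrolyses to leukotriene B4 and LTC4S joins to glutathione to give leukotriene C4. Platelets, which are shed by megakaryocytes, are known for PTGS1, TBXAS1 and the platelet-type lipoxygenase ALOX12, whereas ALOX5 is best known from neutrophils, monocytes and mast cells.

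The 250 bases before the start site are printed for both cyclooxygenases, whose brightest probe sets differed little between the arrays, and for PTGES and PTGER1, which had the high ratios. The sequences are from RefSeq on GRCh38.p14, whose table held 10 start sites for 9 of the 10 genes and none for ALOX5. Capitals mark, on either strand, the TATA box (TATAAA), the GC box (GGGCGG), the GATA motif (AGATAA), the EGR motif (GCGTGGGCG) and the CRE motif (TGACG), a stretch of the cyclic AMP response element. The windows were chr9:122375052-122375301 on the plus strand for PTGS1, chr1:186680424-186680673 on the minus strand for PTGS2, chr9:129753043-129753292 on the minus strand for PTGES and chr19:14475355-14475604 on the minus strand for PTGER1, each written 5′ to 3′.
PTGS1: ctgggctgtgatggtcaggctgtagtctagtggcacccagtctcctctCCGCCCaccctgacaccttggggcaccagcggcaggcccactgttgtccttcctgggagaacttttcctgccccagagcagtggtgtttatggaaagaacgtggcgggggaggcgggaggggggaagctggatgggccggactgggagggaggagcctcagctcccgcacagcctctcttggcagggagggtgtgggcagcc
PTGS2: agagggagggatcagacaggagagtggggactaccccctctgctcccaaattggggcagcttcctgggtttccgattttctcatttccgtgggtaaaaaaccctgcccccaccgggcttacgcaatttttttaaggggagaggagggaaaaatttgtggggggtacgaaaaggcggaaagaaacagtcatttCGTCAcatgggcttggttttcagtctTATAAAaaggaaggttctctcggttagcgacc
PTGES: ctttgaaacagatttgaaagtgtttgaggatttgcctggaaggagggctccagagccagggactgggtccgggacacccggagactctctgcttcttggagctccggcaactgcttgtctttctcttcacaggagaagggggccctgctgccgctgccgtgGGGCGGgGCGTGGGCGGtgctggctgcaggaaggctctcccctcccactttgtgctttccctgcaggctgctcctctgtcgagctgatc
PTGER1: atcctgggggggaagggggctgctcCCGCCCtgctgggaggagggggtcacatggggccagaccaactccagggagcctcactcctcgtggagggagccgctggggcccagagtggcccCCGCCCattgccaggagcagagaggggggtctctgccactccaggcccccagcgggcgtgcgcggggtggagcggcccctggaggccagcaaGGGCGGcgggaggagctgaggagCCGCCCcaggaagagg
The window of PTGS1 belonged to the second of its 2 start sites and held 1 GC box. The window of the first start site, not printed, held a TATA box 208, a GATA motif 178 and a GC box 58 bases before the start. PTGS2 had a TATA box that began 32 bases before the start and a CRE motif that began 58 bases before it. In PTGES 2 GC boxes began 89 and 78 bases before the start, and the second of them overlapped an EGR motif. PTGER1 held 4 GC boxes and had a GC content of 74.0%, against 61.2% in PTGES, 65.2% in PTGS1 and 50.4% in PTGS2. Of the 35116 windows of the same length in the table, 10.7% held the TATA box, 42.6% the GC box, 9.17% the GATA motif, 0.720% the EGR motif and 21.2% the CRE motif. Among the 10 windows of these genes the counts were 3, 6, 2, 1 and 1 in the same order. A match of letters describes the window and is not evidence that a factor binds there.

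The arrays had median signals of 55.6 for Venus and 69.1 for GAS2DN cells, and a signal below the median of its array is called dim here. GAS2 itself was read by 1 dim probe set, with 24.3 in Venus and 34.7 in GAS2DN cells, and its position in the transcript, inside or outside the truncated insert, is not given in the sources used here. Of 13 megakaryocyte markers with a probe set of their own 10 were at or above the median on both arrays, while PF4, PPBP and VWF were dim on both. Of these 10, all but FLI1 and GATA1 were higher in GAS2DN cells. Among the brightest, ITGA2B had 7149 and 9238 and NFE2 2975 and 4295, but FLI1 had 10408 and 6806 in Venus and GAS2DN cells. The median log2 ratio of the 13 was 0.33, and the part of these markers in the values below was not tested. Of 9 granulocyte and monocyte markers 2 were at or above the array median on both arrays. The summed signal of the 9 was 599.8 in Venus and 583.7 in GAS2DN cells, but their median log2 ratio was 0.44. CSF1R, ELANE, MPO, S100A8 and S100A9 were higher in GAS2DN cells. CD14, LYZ, FCN1 and CSF3R were lower, CSF3R with 169.0 in Venus and 21.4 in GAS2DN cells and CD14 with 5.13 and 4.48. In the absence of replicates, the spread of log2 ratios among probe sets of like signal was used as a scale. With all probe sets of single genes divided into 20 bins by mean signal, the SD of the log2 ratio was 0.25 in the brightest bin, 0.54 in the thirteenth and 2.41 in the fifth.

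In the brightest probe set of each gene, the platelet branch had bright and nearly equal signals in both populations. The brightest probe set of PTGS1 that is not of the _x_at kind, which may bind related transcripts, had a signal of 3580 in Venus and 4192 in GAS2DN cells, a log2 ratio of 0.23. The probe set 205128_x_at had 3702 and 4312, and 205127_at had 178.9 and 267.8, whereas 238669_at went the other way with 1446 and 1018. So 3 of the 4 probe sets of PTGS1 were higher and 1 lower in GAS2DN cells, with log2 ratios between -0.51 and 0.58. The lower one lay beyond 1 SD of its bin, 0.34. The log2 ratio of the dimmest higher one exceeded the SD of its bin, 0.54, but was within 1 SD of the median of that bin, 0.09. TBXAS1, the thromboxane synthase, had 992 in Venus and 1045 in GAS2DN cells in 208130_s_at, a log2 ratio of 0.08, and 133.01 and 175.1 in 236345_at, a log2 ratio of 0.40. ALOX12, read by 207206_s_at alone, had 2308 and 2727, a log2 ratio of 0.24 against an SD of 0.29 in its bin. None of the 3 platelet enzymes had a probe set that differed 2-fold between the arrays. In RNA of a bulk population, fewer expressing cells and less RNA per cell cannot be told apart.

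PTGS2, the cyclooxygenase that many cells induce with growth factors and cytokines, had 328.9 in Venus and 362.1 in GAS2DN cells in 204748_at and 86.3 and 102.9 in 1554997_a_at. The log2 ratios were 0.14 and 0.25, both within 1 SD of their bins, 0.45 and 0.76. Thus both cyclooxygenases were read above the array median in both populations, with log2 ratios of their main probe sets close to 0.

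The leukotriene enzymes downstream of ALOX5 were also read above the median on both arrays. LTA4H, the leukotriene A4 hydrolase, had 6695 in Venus and 6668 in GAS2DN cells, equal within 1% at a ratio of 0.996. LTC4S, the leukotriene C4 synthase, had 322.2 and 384.4, a ratio of 1.19. ALOX5AP, which presents arachidonic acid to ALOX5, had 73.3 and 149.9, a ratio of 2.04 and a log2 ratio of 1.03 against an SD of 0.76 in its bin. It was the only gene of the 10 that exceeded 2-fold while neither signal was dim, and 11.8% of the probe sets in its bin had a higher log2 ratio. The ratio was under 2-fold under each rescaling that altered it, with log2 ratios of 0.91 after centring, 0.84 after loess or quantile normalization and 0.76 with the array median added to each signal. Each of these 3 genes had 1 probe set, so no second reading could be set beside it.

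**Figure D1:**
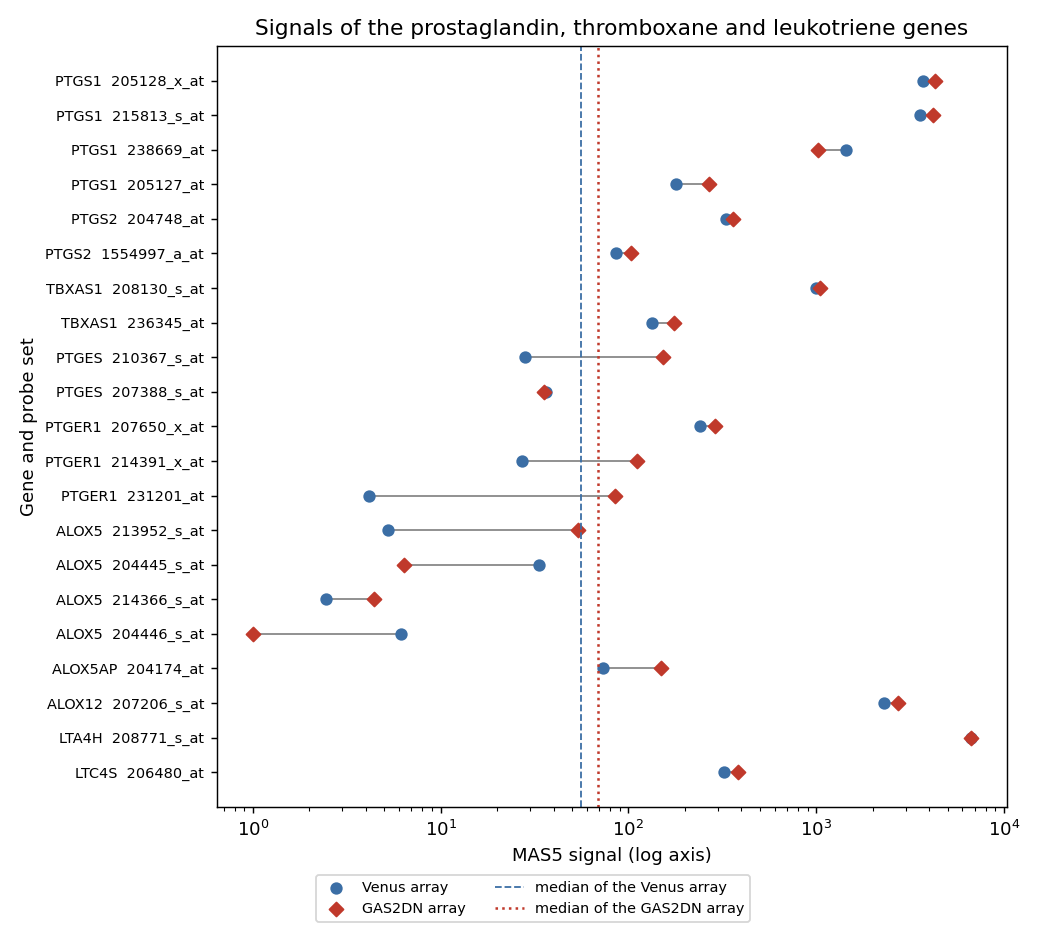
MAS5 signal (log axis) of the 21 probe sets of the 10 genes on the Venus array (blue circles) and the GAS2DN array (red diamonds), joined by grey lines, with the median of each array as a dashed or dotted line. Long lines are found in PTGES, PTGER1 and ALOX5, where at least 1 end lies below the median, while LTA4H with 6695 and 6668 has its symbols on top of each other.

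Ratios over 3-fold were found in 3 genes, each time in a probe set that was dim on at least 1 array. PTGES, the inducible prostaglandin E synthase, had 28.0 in Venus and 152.4 in GAS2DN cells in 210367_s_at, which is 5.44-fold, and 36.5 and 35.5 in 207388_s_at, nearly equal at a ratio of 0.970. Only the GAS2DN signal of the first was above the median, and 0.925% of the probe sets in its bin had a higher log2 ratio. The probe sets of PTGES therefore did not give the same reading, with log2 ratios of 2.44 and -0.04.

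PTGER1, one of the receptors of prostaglandin E2, was higher in GAS2DN cells in each of its 3 probe sets. In 207650_x_at, the one that was bright on both arrays, the signal was 241.3 in Venus and 289.3 in GAS2DN cells, or 1.20-fold. In 214391_x_at it was 27.0 and 110.9, or 4.11-fold, and in 231201_at 4.17 and 84.6, or 20.3-fold. The high ratios were thus those with a dim Venus signal, and once dim signals were raised to the median of their array these 2 probe sets had 1.99-fold and 1.52-fold. In the bin of 231201_at 34.4% of all probe sets were over 3-fold higher and 24.5% over 3-fold lower, and 2.29% had a higher log2 ratio than 231201_at. For 214391_x_at 5.84% of the probe sets in its bin had a higher one.

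ALOX5, the lipoxygenase that opens leukotriene synthesis, was dim on both arrays in all 4 probe sets, and these went in opposite directions. The signal of 213952_s_at was 5.25 in Venus and 53.7 in GAS2DN cells, or 10.2-fold. That of 204445_s_at was 33.5 and 6.42, which gave a ratio of 0.192, and that of 204446_s_at was 6.13 and 1, the lowest value on the array, which gave 0.163. The fourth, 214366_s_at, had 2.45 and 4.44, or 1.81-fold. The log2 ratios of this gene thus ranged from -2.62 to 3.35, and in the bin that holds 213952_s_at 13.7% of the probe sets had a higher one. Myeloid markers went both ways as well, with S100A8 at 4.66 and 87.0 and CSF3R at 169.0 and 21.4 in Venus and GAS2DN cells, and their part in the ALOX5 values was not tested.

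Over all 21 probe sets, 16 were higher and 5 lower in GAS2DN cells, 4 were over 3-fold higher and 2 over 3-fold lower. Among all 41091 probe sets of single genes, 12.6% were over 3-fold higher and 7.58% over 3-fold lower. Requiring the signal of at least 1 array to reach its median left 16 probe sets of 9 genes, with 3 over 3-fold higher and 0 lower, against 4.93% and 3.34% of 24947 such probe sets. Of these 3, 1 was of PTGES and 2 of PTGER1. With neither signal dim, 13 probe sets of 8 genes were left, and 0 were over 3-fold either way, where 0.151% of 20496 were higher and 0.293% lower. Those 13 lay between -0.51 and 1.03 on the log2 scale with an SD of 0.34, while the SD over all 20496 was 0.43. The contrast is the one that the choice of genes used, so nothing is read from these counts beyond which probe sets they rest on.

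**Figure D2:**
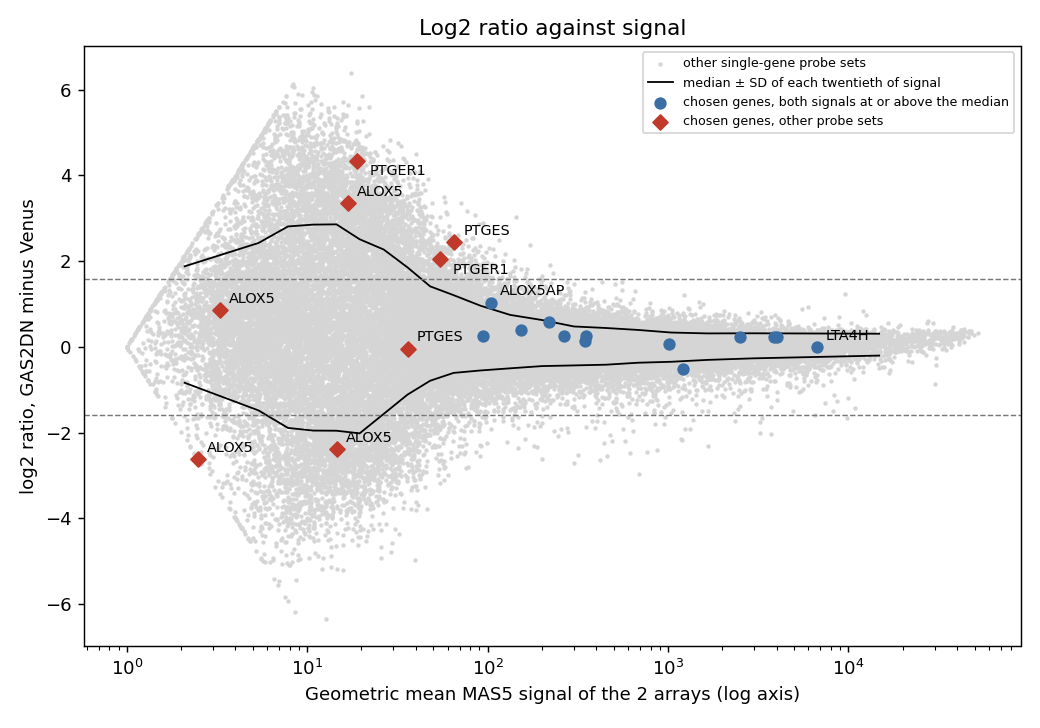
Log2 ratio of GAS2DN to Venus against the geometric mean MAS5 signal (log axis) for all probe sets of single genes (grey) and the 21 of the chosen genes, blue where both signals reach the median and red diamonds otherwise, with dashed lines at 3-fold and black lines at the median ± SD of each of 20 bins. The blue points lie between -0.51 and 1.03, and the red ones spread from -2.62 to 4.34 where the grey cloud is widest.

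By the main probe set, defined by the highest mean log2 signal and never of the _x_at kind where a gene has others, 9 of the 10 genes were higher in GAS2DN cells. Their median log2 ratio was 0.25, beside 0.09 over the main probe sets of all genes, of which 58.0% were higher. In the 7 genes whose main probe set was at or above the median on both arrays, the median was 0.23, with values from -0.01 for LTA4H to 1.03 for ALOX5AP, beside 0.05 over 11156 such genes. After the log2 ratios were centred on the median ratio of all probe sets, the median of the 10 genes was 0.13 and TBXAS1 was at -0.05. The main probe sets of PTGES, PTGER1 and ALOX5 gave 2.44, 4.34 and 3.35. With the probe set that was brightest in Venus cells in their place, the values were -0.04, 0.26 and -2.38. With the one that was brightest in GAS2DN cells, they were 2.44, 0.26 and 3.35. Either choice favours a high signal on the array that it was made on. For PTGER1 both choices also admitted the _x_at kind and gave 207650_x_at, since 231201_at is its one probe set of another kind. PTGER1 was the one gene of the 3 that stayed above 0 in all its probe sets.

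**Figure D3:**
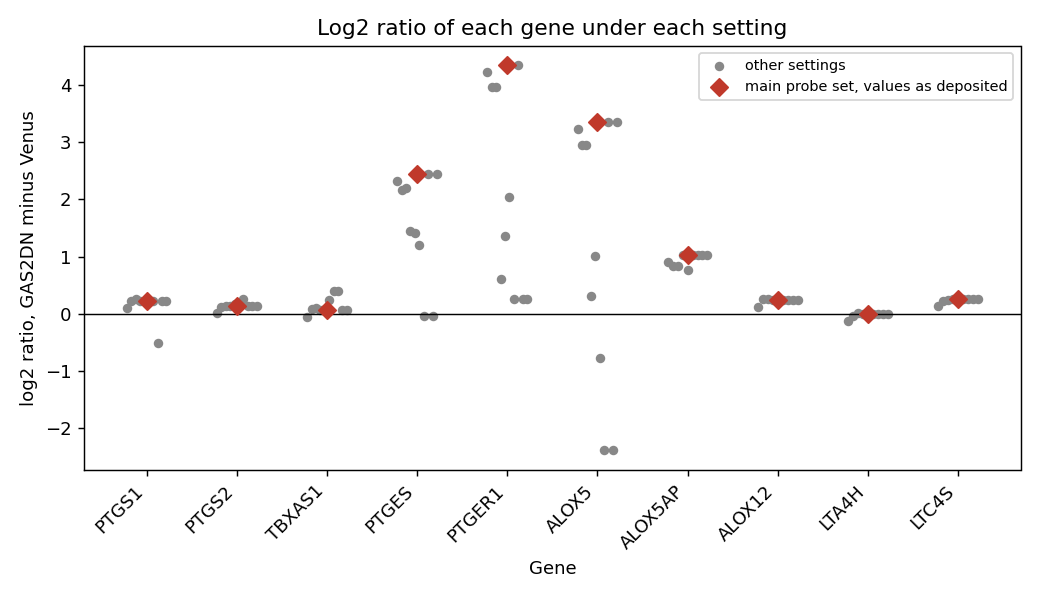
Log2 ratio of GAS2DN to Venus for each of the 10 genes by its main probe set and the values as deposited (red diamonds) and under 10 other settings, or 9 for a gene with 1 probe set (grey points). PTGES, PTGER1 and ALOX5 spread widely, from -2.38 to 3.35 in ALOX5, while the grey points of ALOX12 lie between 0.12 and 0.26. ALOX12 has 1 probe set, so no choice of probe set could move it.

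Other genes of the pathway were described from a list of 50, of which 47 had a probe set of their own and 33 a main probe set that reached the median on at least 1 array. Of these 33, 4 were over 2-fold higher and 2 over 2-fold lower in GAS2DN cells, beside 7.87% and 4.44% of 13118 genes outside the 10. Their median log2 ratio was 0.19, beside 0.06 over the 13118. All 6 genes over 2-fold had 1 dim signal, and of the 26 without a dim signal 0 differed 2-fold, with log2 ratios from -0.75 to 0.65.

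Among the genes of substrate release, PLA2G4A, the cytosolic phospholipase A2 that supplies arachidonic acid, had 3792 in Venus and 2845 in GAS2DN cells, a log2 ratio of -0.41 against an SD of 0.29 in its bin. It was read by 1 probe set, and 92.3% of the probe sets in its bin had a higher log2 ratio. The secreted phospholipases PLA2G2A, with 40.1 and 126.9, and PLA2G5, with 5.84 and 96.4, had ratios of 3.16 and 16.5 from dim Venus signals. The other 2 probe sets of PLA2G5 were dim on both arrays and had ratios of 1.97 and 1.99.

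The other prostanoid synthases included several that were bright and nearly equal. PTGES3, the cytosolic prostaglandin E synthase that is also the cochaperone p23, had 27944 in Venus and 28794 in GAS2DN cells. PTGES2, a further prostaglandin E synthase, had 251.3 and 304.2, a log2 ratio of 0.28, so the 2 alternatives to PTGES were both read above the median without a difference beyond the SD of their bins, 0.25 and 0.45. HPGDS, the haematopoietic prostaglandin D synthase, had 4194 and 4448. PTGDS, the other prostaglandin D synthase, was not nearly equal. Its main probe set had 140.8 and 86.9, a log2 ratio of -0.70 against an SD of 0.62 in its bin, with neither signal dim. Its probe set 212187_x_at went the other way with 33.3 and 124.1, the Venus signal being dim, and 211663_x_at was dim on both arrays with 17.1 and 34.1. HPGD, the dehydrogenase that inactivates prostaglandins, had 12569 and 10483 in its main probe set and log2 ratios from -0.26 to 0.36 in its 4 probe sets. ABCC4, a transporter that exports prostaglandins, had 11096 and 11751, though 1676 and 1077 in 1554918_a_at, a log2 ratio of -0.64.

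Of the 8 other prostanoid receptors 5 were at or above the median on both arrays. TBXA2R, the receptor of thromboxane A2, had 2103 in Venus and 2332 in GAS2DN cells, and its 4 log2 ratios lay between -0.51 and 0.15. PTGER3, a further prostaglandin E2 receptor, had 1960 and 2419 in its main probe set. Its 10 probe sets ran from -1.96, in one that was dim in GAS2DN cells, to 0.34. All but the main one and 210831_s_at were lower in GAS2DN cells. Among the lower ones 210375_at had 683.0 and 394.7, neither dim, a log2 ratio of -0.79 against an SD of 0.43 in its bin. PTGER2 had 132.7 and 207.8, a log2 ratio of 0.65, and PTGIR, the prostacyclin receptor, had 211.6 and 297.7, a log2 ratio of 0.49. Both exceeded 1 SD of their bins, 0.54 and 0.45. PTGER4 was dim on both arrays, with log2 ratios of 0.78 and -1.69 in its 2 probe sets. Of the 4 receptors of prostaglandin E2, then, PTGER2 and PTGER3 were the ones whose main probe set was bright on both arrays. PTGER1 was also bright on both, with 241.3 and 289.3, in 207650_x_at, which is not its main probe set.

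In the leukotriene branch CYSLTR1, a receptor of the cysteinyl leukotrienes, had 438.8 in Venus and 542.5 in GAS2DN cells, and its relative CYSLTR2 had 69.8 and 101.7, log2 ratios of 0.31 and 0.54. LTB4R, a receptor of leukotriene B4, had 169.3 and 140.5, a log2 ratio of -0.27, and its 3 probe sets were all lower in GAS2DN cells. Each of these main probe sets was within 1 SD of its bin. OXER1, a receptor of oxidised eicosanoids that was singled out after its values were seen, had 199.3 and 118.3, a log2 ratio of -0.75 against an SD of 0.62, with neither signal dim. MGST2 and MGST3, listed as leukotriene enzymes and also singled out afterwards, went the other way with 6105 and 7629 and with 1735 and 2162. Their log2 ratios were 0.32 against SDs of 0.25 and 0.31, though MGST3 had -0.63 in 233307_x_at. DPEP2, a dipeptidase that cleaves leukotriene D4, had 64.4 and 5.59, a ratio of 0.0868, and CYP4F2, a hydroxylase of leukotriene B4, had 63.8 and 10.4, a ratio of 0.163. The epidermal lipoxygenase ALOXE3 had 11.4 and 77.9, a ratio of 6.81, and PTGR1, a reductase that inactivates prostaglandins and leukotriene B4, had 25.4 and 75.7, a ratio of 2.98. In each of these 4 genes 1 of the signals was dim. In PTGR1 all 3 probe sets were higher in GAS2DN cells, by 2.98, 5.09 and 6.11 times, the last 2 dim on both arrays.

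**Figure D4:**
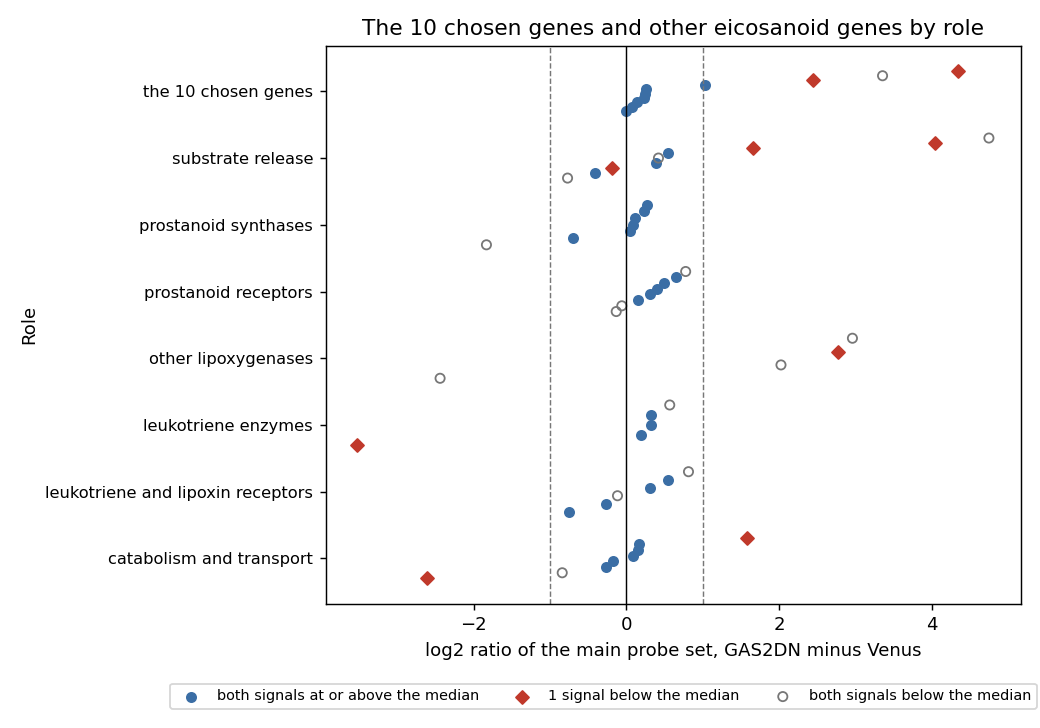
Log2 ratio of the main probe set, GAS2DN minus Venus, for the 10 chosen genes and for 47 other genes of the pathway by role, with dashed lines at 2-fold, blue where both signals reach the median, red diamonds where 1 does and open circles where neither does. The blue points of the 47 genes lie between -0.75 and 0.65, and those beyond 2-fold are red or open.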

How the data were processed

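The authors hybridised pooled RNA to Human Genome U133 Plus 2.0 arrays and deposited log2 values of MAS5 signals. The submitters' notes name MAS5, and its version is not given in the sources used here. On the linear scale the 2% trimmed mean was 500.1 on both arrays, and the lowest log2 value was 0. Of 54675 probe sets, 41091 had 1 gene in the platform annotation, whose symbols were updated through the gene identifier for 41037. Those with several genes, with none, or controls (1801, 11721 and 62) were not used. Ratios were taken per probe set without further scaling. Over 3-fold means a ratio above 3, or above 3 when turned over. No test was possible with 1 array per condition, whose number limits the precision. The genes, lists and the rule for named genes (the 10 genes, 13 fixed genes of the pathway list and any other of it over 2-fold with a main probe set reaching 1 array median) were chosen with earlier results of these data known. HPGDS, PTGDS, OXER1, MGST2 and MGST3 were named outside this rule. The choice of the probe set brightest on 1 array was added after the data were seen. The marker lists were of megakaryocyte, erythroid, granulocyte and monocyte, mast cell and basophil, lymphoid and fibroblast genes. Alternatives were centring, loess (span 0.2, 3 iterations), quantile normalization, 2 treatments of low signals, other filters, a 2-fold threshold for the counts and other probe sets. Ratios without scaling and after centring, loess or quantile normalization were tested on simulated data with changes placed in bright probe sets only. The choice of probe set was tested on a made-up gene. The 2 treatments of low signals were not tested in this way. The work used matplotlib 3.10.9, statsmodels 0.14.6, scipy 1.17.1, pandas 2.3.3 and numpy 2.4.6 under Python 3.11.15.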

Additional observations from a re-analysis of the deposited data

How the results depend on the processing

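No paired analysis was possible because each condition had 1 array. The median log2 ratio was 0.13 after centring and stayed within 0.1 of 0.25 under the 11 other settings, not all of which held the 10 genes. The second-brightest probe set exists only in the 6 genes with several probe sets. The filters left 9 genes where 1 signal had to reach the median and 7 where both had to. The count of 3 probe sets over 3-fold higher became 0 where neither signal could be dim, 0 where dim signals were raised to their array median and 0 where that median was added to every signal. It was 3 after centring, loess or quantile normalization and 4 without a filter. With probe sets over 2-fold higher counted instead, it was 4. The count of 0 over 3-fold lower became 2 without a filter, both of ALOX5, and was 0 otherwise. PTGES turned to -0.043 by its second-brightest probe set, which is also the brightest in Venus cells. ALOX5 turned to -2.38 by the same 2 choices and to -0.76 by the median over its probe sets. Of 96 log2 ratios of single genes under other settings, 80 moved by less than the SD of their bin and 11 by more, among them PTGS1 with -0.51 by its probe set 238669_at, and 5 are the turned values of PTGES and ALOX5. Some of the 80 could not have moved. A choice that returned the main probe set again left the value as it was, as always in genes with 1 probe set. Main probe sets bright on both arrays were likewise not altered by raising dim signals. Wide SDs in dim bins also let large moves count among the 80. ALOX5 went from 3.35 to 1.01, below 3-fold, with the array median added, a move within its SD of 2.41. Raising dim signals sets a probe set that is dim on both arrays to a log2 ratio of 0.31, the ratio of the medians, whatever its signals. The median log2 ratio over all single-gene probe sets was 0.10 as deposited and lay between -0.02 and 0.01 after centring, loess or quantile normalization. It was 0.31 with dim signals raised and 0.19 with the array median added. The median over the main probe sets of the 10 genes was 0.25 under both of these treatments. The cause of the differences between probe sets of 1 gene was not tested. Depth cannot be given for arrays, and signals near or under 55.6 and 69.1 carry the widest spread.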

Other observations

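Mast cells and basophils are a known source of prostaglandin D2 and leukotriene C4, and 3 of the 4 markers of these cells with a probe set of their own were bright on both arrays. FCER1A, a chain of the IgE receptor, had 16028 in Venus and 21935 in GAS2DN cells, HDC, the histidine decarboxylase, had 5261 and 4477, and CPA3, a mast cell carboxypeptidase, had 1497 and 2017, while the tryptase TPSAB1 was dim with 31.4 and 16.2. The summed signal of the 4 was 22817 and 28445. Of 4 erythroid markers 2 were bright on both arrays, the summed signal being 2521 and 3213, where KLF1 had 2173 and 2963 but EPOR 278.0 and 214.6, and the median log2 ratio of the 4 was 0.037. Of 4 lymphoid markers 1 was, with sums of 249.7 and 335.9, and of 4 fibroblast markers 0 were, with sums of 154.6 and 232.8. The summed signal of the 13 megakaryocyte markers was 25338 in Venus and 25833 in GAS2DN cells, a near equality in which the fall of FLI1 weighs heavily. Of the 10 that were bright on both arrays, FLI1 and GATA1 were lower in GAS2DN cells. The others, ITGA2B, NFE2, SELP, TUBB1, ITGB3, GP6, GP9 and GP1BA, were higher. The part of these levels in the values of the prostaglandin and leukotriene genes was not tested.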
